A study of Schizosaccharomyces pombe with 26 samples.

Results

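The 8 genes described here, arg1, arg3, arg4, arg5, arg6, arg7, arg11 and arg12, encode enzymes of arginine biosynthesis in the fission yeast Schizosaccharomyces pombe. They were picked by name, as the spots named for the gene or its systematic identifier on 2-colour glass arrays, one type for intergenic regions (IGR) and the other for open reading frames (ORF). All 8 were found on both array types, which makes 8 of 4960 IGR features and 8 of 4885 ORF features, each printed in 2 spots. The set was proposed because the ORF spots of arg5 differed in histone H3 signal between wildtype cells and both deletion strains, so comparisons of these 8 genes with wildtype are given as descriptions without tests. Their other comparisons were tested across all features of an array type.

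The study measured where Med15, a tail subunit of Mediator, the coactivator between transcription factors and RNA polymerase II, binds the genome, and how histone H3 is distributed without Med15 or without Hrp1, a chromatin remodelling ATPase of the CHD family. Chromatin immunoprecipitation (ChIP) of H3 was hybridised from 3 strains: wildtype (strain 711), delta-med15 and delta-hrp1, called the med15 deletion and the hrp1 deletion here. For each array type there were 2 wildtype samples, 2 of the med15 deletion and 3 of the hrp1 deletion. ChIP with an antibody against the myc tag came from 3 samples per array type of another strain, Med15-myc, in which Med15 carries the tag, and an untagged strain was not analysed here. For ChIP, cells grew to mid-log phase in YES, here a rich yeast extract and glucose medium that is supplemented with arginine. ChIP and input DNA were amplified before labelling. Each deletion is represented by a single strain, and the design text calls the repeats biological replicates. RNA samples of the series (6 in all) were not analysed here, because no table at hand names the genes of their probe sets.

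Arginine is built from glutamate by way of ornithine. Glutamate is first acetylated, phosphorylated, reduced and aminated, the acetyl group is then removed, and the ornithine so formed takes up carbamoyl phosphate and the amino group of aspartate before arginine is released. In yeasts the acetylated part of the route runs in mitochondria, and cells given arginine need little flux through it. Histone H3 is a core subunit of the nucleosome, and H3 ChIP reports how much nucleosomal DNA a spot recovers. In the order of the route, arg6 encodes N-acetylglutamate synthase, and arg11 a precursor that yields both acetylglutamate kinase and acetylglutamyl-phosphate reductase. The product of arg1 is acetylornithine aminotransferase. The large and small subunits of the arginine-specific carbamoyl-phosphate synthase are encoded by arg4 and arg5. Ornithine carbamoyltransferase is encoded by arg3, argininosuccinate synthase by arg12 and argininosuccinate lyase by arg7. The genes arg11 and arg3 are neighbours, with no other protein-coding gene between them in the ASM294v3 gene table.

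H3 signal below is the deposited log2 value of the ChIP channel, averaged over the spots of a feature and set to 0 at the median of its array. It is not divided by input, so it is used mainly to compare samples at the same spot. Where it is set against empty spots, the array median or other genes, spot brightness is part of the value. H3 over input and Med15-myc over input are log2 ratios of the ChIP to the input channel as scanned, also set to 0 at the array median. They exist for the 16 samples with scanner files, and input of the wildtype samples was not analysed here. The wildtype arrays stood apart from the others: over ORF features the Spearman correlation of H3 signal was 0.924 between the wildtype samples, 0.296 to 0.643 between wildtype and deletion samples, and 0.548 to 0.892 among deletion samples. Although the design text has dyes swapped throughout, both wildtype samples at hand carried the ChIP DNA in Cy3, while each deletion strain included 1 sample with the dyes swapped to Cy5. The arrays of the med15 deletion and those of the hrp1 deletion carry different dates in their file names, so strain and date cannot be told apart. The deleted genes checked the strain labels: H3 signal at the med15 ORF was −4.75 and −4.02 in the med15 deletion against −1.78 and −1.44 in wildtype. At the hrp1 ORF it was −5.23, −5.99 and −4.53 in the hrp1 deletion against 1.49 and 1.41 in wildtype.

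At the arg5 ORF, H3 signal was −6.42 and −5.51 in the wildtype samples. It was 1.89 and 1.49 in the med15 deletion, and 1.55, 1.88 and 1.28 in the hrp1 deletion. The wildtype values lay far below those of all 5 deletion samples, and the deletion samples of both strains overlapped with each other. These values chose the gene, and both deletions are set against the same wildtype samples, so they are given with no test.

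The wildtype value is a bound rather than a level. An empty-spot value was taken for each sample from the deposited table, as the mean of the medians over empty spots in odd and in even columns. After the same centring it was −5.04 and −4.49 in the wildtype samples, so arg5 read 1.38 and 1.03 log2 units below it. Before centring, 1 of the arg5 spots in wildtype sample 1 stood at the lowest value the table holds (−6.64) and was treated as missing, and the other read −6.41. In wildtype sample 2 the spots read −4.58 and −6.38 on that scale, and all spots of the deletion samples lay between 1.21 and 1.98. With the empty-spot value as the limit for wildtype, H3 signal at arg5 was at least 87.8-fold higher in the med15 deletion and at least 80.7-fold higher in the hrp1 deletion (means of 2 and 3 samples). With single samples left out, the bound ran from 72.5 to 106-fold in the med15 deletion and from 66.7 to 97.7-fold in the hrp1 deletion. The labels do not say how the authors set the value of empty spots.

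**Figure D1:**
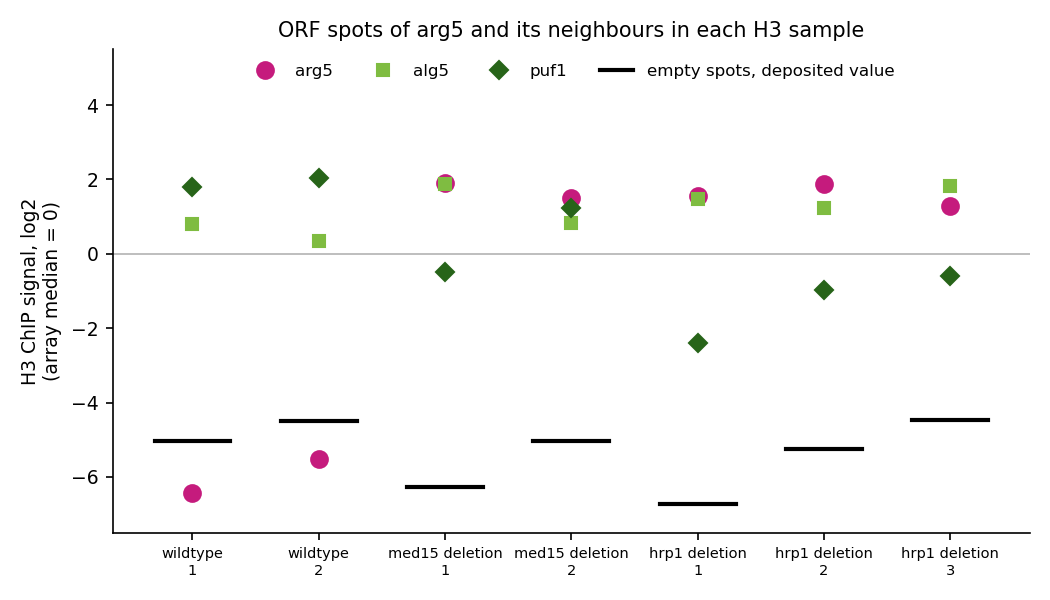
H3 ChIP signal (log2, array median at 0) of the ORF spots of arg5 and of its neighbours alg5 and puf1 in each of the 7 ORF samples. The black bar is the empty-spot value of each sample, taken from the deposited values. In the wildtype samples arg5 (−6.42 and −5.51) lies below the bar, while in all 5 deletion samples it lies between 1.28 and 1.89.

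With floor values treated as missing, 4775 ORF features were measured on both wildtype arrays, and arg5 was the 1 feature at or below the empty-spot value on both. With floor values kept, 4 of 4779 features were, and arg5 was the 1 of these that exceeded the array median on all 5 deletion arrays. This pattern is the one for which arg5 was chosen, so nothing is read from its place in these counts. In the other direction, 70 features (1.465%) exceeded the empty-spot value on both wildtype arrays and were at or below it on a deletion array. The neighbours of arg5 in the gene table are alg5 (a glucosyltransferase of protein glycosylation) and puf1 (a Pumilio-family RNA-binding protein). Their ORF spots did not show the low wildtype value. H3 signal at the alg5 ORF was 0.80 and 0.35 in wildtype and 0.83 to 1.87 in the deletions, and the groups did not overlap. At the puf1 ORF it was 1.80 and 2.05 in wildtype, above every deletion sample, which ranged from −2.41 to 1.23. Of all ORF features, 71.4% did not overlap with wildtype in the med15 deletion and 60.6% in the hrp1 deletion. At the IGR spots named for alg5, H3 signal was −2.04 and −2.43 in wildtype, below all 5 deletion samples (−1.60 to 0.35). For IGR features those shares were 70.6% and 48.9%. The puf1 IGR spots read −3.40 and −1.60 in wildtype and −3.87 to −0.57 in the deletions.

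In the other strains the arg5 ORF spots were bright in both channels. The input intensity of arg5 exceeded the array's median input in 8 of 8 samples of the med15 deletion, hrp1 deletion and Med15-myc strains, and the ChIP intensity exceeded its median in 8 of 8. Input intensity ranged from 9621 to 27212. With no wildtype input, less H3 at arg5 and less arg5 DNA in the wildtype hybridisations cannot be told apart.

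The ORF features with the profile nearest to that of arg5 over the 7 samples were ranked by Euclidean distance after each feature's own mean was removed. The nearest was the ammonium transporter gene amt1, at a distance of 3.69 with a mean H3 signal of −4.76 in wildtype, −0.57 in the med15 deletion and 0.74 in the hrp1 deletion. The next were mrz1, SPBPB10D8.01, pob1 (a cell polarity gene) and cog3 (a subunit of a Golgi tethering complex), up to a distance of 4.67. The median distance over 4722 features was 9.18. All of the 5 had wildtype means below their deletion means, a direction that ranking by nearness to arg5 itself selects for. None was as low in wildtype as arg5.

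Among the other 7 arginine genes no ORF showed a change of that size, and fitted differences from wildtype lay between −1.12 and 1.46. At arg11, which makes the kinase and the reductase, H3 signal was −1.08 and −0.49 in wildtype, −0.09 and −0.11 in the med15 deletion, and 1.12, 0.34 and 0.39 in the hrp1 deletion. The strains did not overlap and stood in that order. At arg4, the partner subunit of arg5, it was 1.38 and 1.25 in wildtype, 0.59 and 0.23 in the med15 deletion, and 0.64, 0.63 and 0.51 in the hrp1 deletion. Both wildtype samples lay above all 5 deletion samples, the opposite order to arg5.

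At arg6, the first enzyme, H3 signal over the ORF was 1.14 and 0.55 in wildtype, 0.19 and 1.50 in the med15 deletion, and −0.83, −0.40 and 0.45 in the hrp1 deletion. The hrp1 deletion lay below wildtype, and the med15 deletion spanned the wildtype values. At arg12 it was −0.93 and −0.32 in wildtype, −0.63 and −0.57 in the med15 deletion, and 0.21, 0.06 and −0.34 in the hrp1 deletion. Here the hrp1 deletion lay above the med15 deletion and overlapped with wildtype. At arg1 all samples lay between 0.00 and 1.39, at arg3 between −0.36 and 0.45, and at arg7 between −0.63 and 0.25. For arg1 and arg3 every pair of strains overlapped, and for arg7 the med15 deletion lay just above wildtype.

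**Figure D2:**
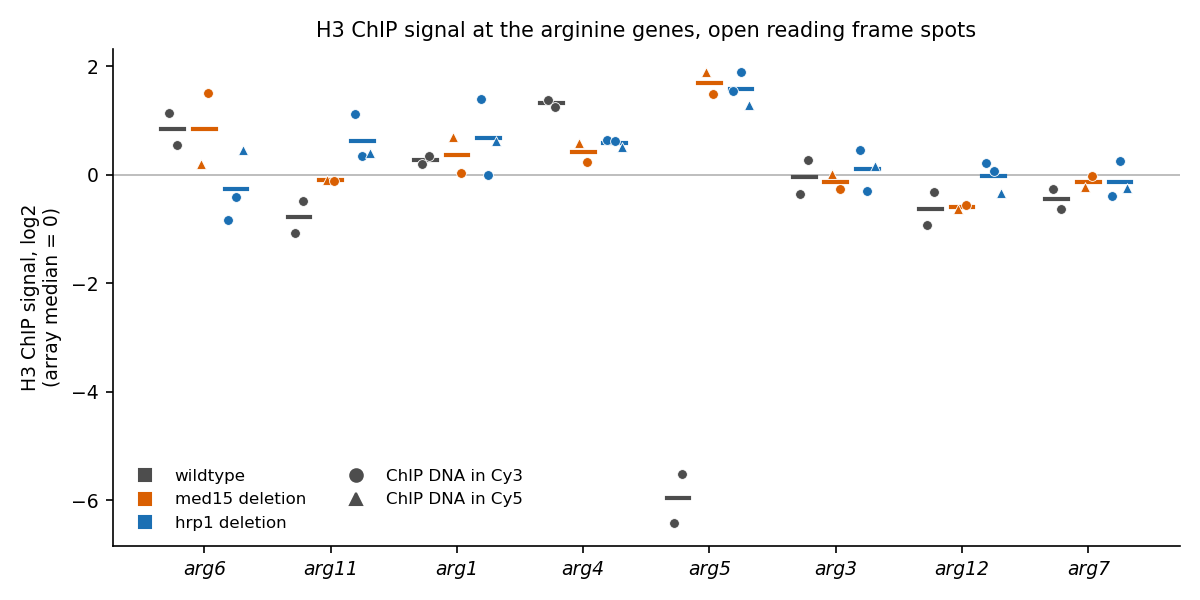
H3 ChIP signal (log2, array median at 0) at the ORF spots of the 8 arginine genes in the order of the route, with 1 point per sample (grey wildtype, orange med15 deletion, blue hrp1 deletion; circles for ChIP DNA in Cy3 and triangles in Cy5) and a bar at each strain's mean. The wildtype samples of arg5 at −6.42 and −5.51 lie far below every other point, while the other genes stay between −1.08 and 1.50.

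Counted over the 8 ORFs, the med15 deletion samples did not overlap with wildtype at 4 genes (higher at arg5, arg7 and arg11, lower at arg4), where 71.4% of all ORF features measured in every sample did not overlap. The hrp1 deletion samples did not overlap with wildtype at 4 genes (higher at arg5 and arg11, lower at arg4 and arg6), against 60.6% of all ORF features. These contrasts chose the members, and nothing is read from the counts.

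Over the intergenic spots that carry the genes' names, the side of the gene on which the spotted region lies is not stated. IGR H3 signal at arg5 was −1.19 and −1.70 in wildtype, −0.95 and −1.07 in the med15 deletion, and −4.23, −4.13 and −0.83 in the hrp1 deletion. The low wildtype value of the ORF was not seen at the intergenic spots, and the hrp1 deletion was split, with its Cy5 sample near the other strains. In the low samples of the hrp1 deletion the ChIP intensity at these spots was 165.5 and 289, over a local background of 128 and 122.5. Both spots of the first and 1 spot of the second carried scanner flag 2. On each ORF array with scanner files, 95.03% or more of empty spots carried that flag.

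At arg4 the IGR signal was −0.63 and −0.33 in wildtype, −2.20 and −2.86 in the med15 deletion, and −4.04, −0.85 and −3.47 in the hrp1 deletion. At arg3 it was −1.37 and −1.15 in wildtype, −2.38 and −3.69 in the med15 deletion, and −2.18, −1.61 and −2.45 in the hrp1 deletion. At both genes all 5 deletion samples lay below wildtype. These spots were dim: input at arg3, arg4, arg5 and arg7 was below the array's median in 8 of 8 samples with input.

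At arg7, for the last enzyme of the route, the IGR signal was −1.78 and −1.57 in wildtype, 0.24 and −0.32 in the med15 deletion, and −1.57, −0.39 and 0.22 in the hrp1 deletion. The med15 deletion lay above wildtype, and the lowest hrp1 deletion sample reached the wildtype values. At arg12 it was 0.69 and 1.11 in wildtype, 0.04 and 0.73 in the med15 deletion, and 1.91, 2.15 and 1.96 in the hrp1 deletion. The hrp1 deletion lay above both other strains, which overlapped. At arg6 it was 1.15 and −0.48 in wildtype, 1.28 and 1.31 in the med15 deletion, and −0.66, −0.58 and −0.15 in the hrp1 deletion. The deletions lay apart from each other, and the wildtype samples spanned most of the gap between them.

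At arg1 the IGR signal ranged from 0.48 to 3.59 over the 3 hrp1 deletion samples and enclosed the other strains. At arg11 the med15 deletion, at 0.45 and 0.59, lay above wildtype at 0.15 and −0.89. In all, the med15 deletion did not overlap with wildtype at 7 of 8 IGR features (70.6% of all IGR features measured in every sample), and the hrp1 deletion at 3 of 8 (48.9%). These counts too come from the contrasts that chose the members.

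**Figure D3:**
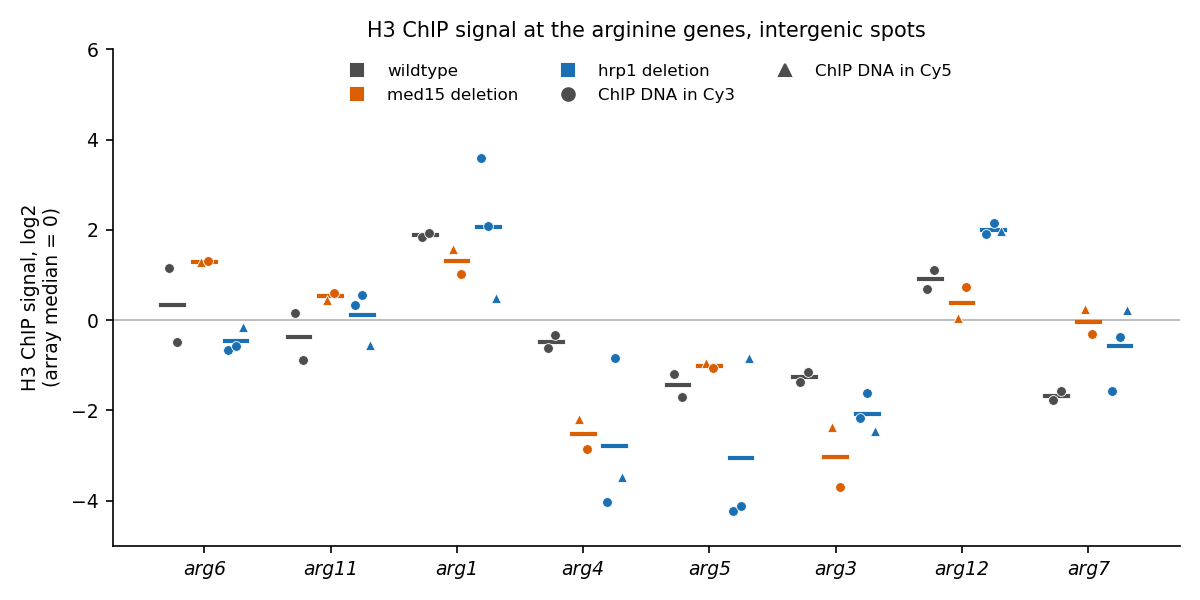
H3 ChIP signal (log2, array median at 0) at the IGR spots named for the 8 arginine genes, drawn as for the ORF spots: 1 point per sample, grey wildtype, orange med15 deletion, blue hrp1 deletion, circles Cy3, triangles Cy5, bars at strain means. The hrp1 deletion samples of arg12 lie at 1.91 to 2.15, above the other strains, and those of arg5 are split between −4.23 and −0.83.

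The deletions were then compared with each other, a contrast the choice of members did not use directly. Of the 8 genes, 0 passed on either array type in limma after Benjamini-Hochberg adjustment over all features of the array type (threshold 0.05), where 0% of IGR and 0.523% of ORF features passed. An unadjusted p under 0.05 was reached by 3 IGR features and 0 ORF features of the set. The share of all features at that threshold is not given here, so nothing is read from this count. IGR H3 signal at arg12 was 1.56 ± 0.52 (SE) log2 units higher in the hrp1 than in the med15 deletion (limma, adjusted p = 0.146), with all 3 samples above both. At arg6 the hrp1 deletion minus the med15 deletion was −1.72 ± 0.60 (limma, adjusted p = 0.163), again without overlap. At arg5 it was −1.73 ± 0.71 (limma, adjusted p = 0.211), and the samples overlapped.

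Over the ORFs the widest difference between the deletions was at arg6 (−1.10 ± 0.56, limma, adjusted p = 0.245), then at arg11 (0.69 ± 0.41, adjusted p = 0.311). At the arg5 ORF the deletions differed by −0.13 ± 0.43 (limma, adjusted p = 0.866), less than its standard error. Since arg5 was picked for differing from wildtype in both deletions, this closeness is not independent of the choice. Samples of the deletions did not overlap at 2 ORFs (arg11 and arg12, both higher in the hrp1 deletion) against 43.8% of all ORF features, and at 2 IGR features (arg12 higher, arg6 lower) against 38.8%. Without hrp1 deletion replicate 1, arg12 passed on the IGR arrays (1.67 ± 0.45, limma, adjusted p = 0.0295), and the number of IGR features passing rose from 0 to 822 (8.31% of all features passed as higher). With replicate number as a block, 66 IGR features passed and still 0 of the 8 genes.

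H3 over input was available in the deletions alone. At the arg5 ORF it was 0.11 and 0.59 in the med15 deletion and 0.83, 0.71 and −0.60 in the hrp1 deletion. Their mean over strains was 0.25 ± 0.19 above the array median (limma, adjusted p = 0.590), and the 1 negative value came from the hrp1 deletion sample with ChIP DNA in Cy5. Among all ORF features this mean stood at percentile 74.2.

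Across the ORFs of the route, 0 of 8 differed from the array median (0.328% of all ORF features did, every one of them lower). An unadjusted p under 0.05 was reached by 1 of the 8, arg12. Of all 4885 ORF features, 261 reached that threshold as higher and 466 as lower, so nothing is read from that count. At arg12 the samples were 0.64 and 0.07 in the med15 deletion and 0.32, 0.12 and 0.82 in the hrp1 deletion. Their mean was 0.44 ± 0.17 (limma, adjusted p = 0.333). All 5 samples of arg12 lay above the array median, as did 8.19% of all ORF features. At arg4 they lay between 0.00 and 0.70, also all above it, but after normexp correction the lowest arg4 sample was −0.02. At arg3 the 5 samples lay below the median, at −0.19 and −0.43 in the med15 deletion and −0.16, −0.67 and −0.77 in the hrp1 deletion, as did 10.2% of all ORF features. The mean of arg3 was −0.43 ± 0.19 (limma, adjusted p = 0.387). With background correction by normexp and loess, arg3 passed (−0.46 ± 0.15, limma, adjusted p = 0.0257), where 14.8% of all ORF features passed as lower.

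Between the deletions, H3 over input at the ORFs differed most at arg11, with −0.20 and −0.04 in the med15 deletion and 0.92, 0.06 and 0.71 in the hrp1 deletion. The hrp1 deletion was 0.69 ± 0.43 higher (limma, adjusted p = 0.999) and did not overlap with the med15 deletion. The H3 signal at the arg11 ORF had the same order, but it comes from the same ChIP channel of the same arrays. At arg4 the samples of the deletions did not overlap either, with the hrp1 deletion higher by 0.35 ± 0.36 (limma, adjusted p = 0.999). Over all ORF features 14.6% did not overlap and 0% passed, and of the 8 genes 0 passed and 0 had an unadjusted p under 0.05.

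On the IGR arrays the ratios spread widely at several genes. At arg1, whose input exceeded the array median in 8 of 8 samples, H3 over input was 0.10 and 0.66 in the med15 deletion and 2.55, 0.63 and −1.50 in the hrp1 deletion. The hrp1 deletion samples of arg1 lay on both sides of the med15 deletion. At arg3, with dim input, H3 over input was 3.65 and −2.32 in the med15 deletion and −4.07, −0.72 and 7.08 in the hrp1 deletion. The high value of each strain came from its Cy5 sample, in which the input intensity was 45.2 for the med15 deletion and 4 for the hrp1 deletion. Scanner flag 2 lay on both arg3 spots in hrp1 deletion samples 1 and 3 and on 1 in sample 2. In the med15 deletion it lay on 0 arg3 spots. At arg4 the Cy5 samples were again the highest of their strain, with 0.34 against −1.53 and 3.27 against −3.18 and −0.11. The part that dye and background have in these ratios was not tested gene by gene. After normexp correction the samples at arg3 lay between −1.14 and 0.90, and those at arg4 between −1.03 and 0.49.

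At the arg5 IGR spots H3 over input was 1.40 and −0.10 in the med15 deletion and −1.73, −2.55 and −0.32 in the hrp1 deletion. All 3 hrp1 deletion samples lay below both others, a difference of −1.91 ± 0.72 (limma, adjusted p = 0.9995, unadjusted p = 0.0356). This was 1 of 8 IGR features of the set without overlap, where 9.23% of all IGR features did not overlap. None of the 8 passed against the array median (0 of 8, with 0 at an unadjusted p under 0.05, and 0% of all IGR features). At 0 of the 8 did all 5 samples lie above the array median (6.13% of all IGR features did) or all below it (7.72%). After normexp correction arg12 lay above it in all 5 samples (0.03 to 1.09), and the share of all features was not counted there. At arg7 the samples were 0.99 and 0.53 in the med15 deletion and −1.23, 0.28 and 1.86 in the hrp1 deletion, with a mean of 0.66 ± 0.43 (limma, adjusted p = 0.639). With normexp, arg7 passed at 0.92 ± 0.27 (limma, adjusted p = 0.00495), where 9.56% of all IGR features passed as higher.

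**Figure D4:**
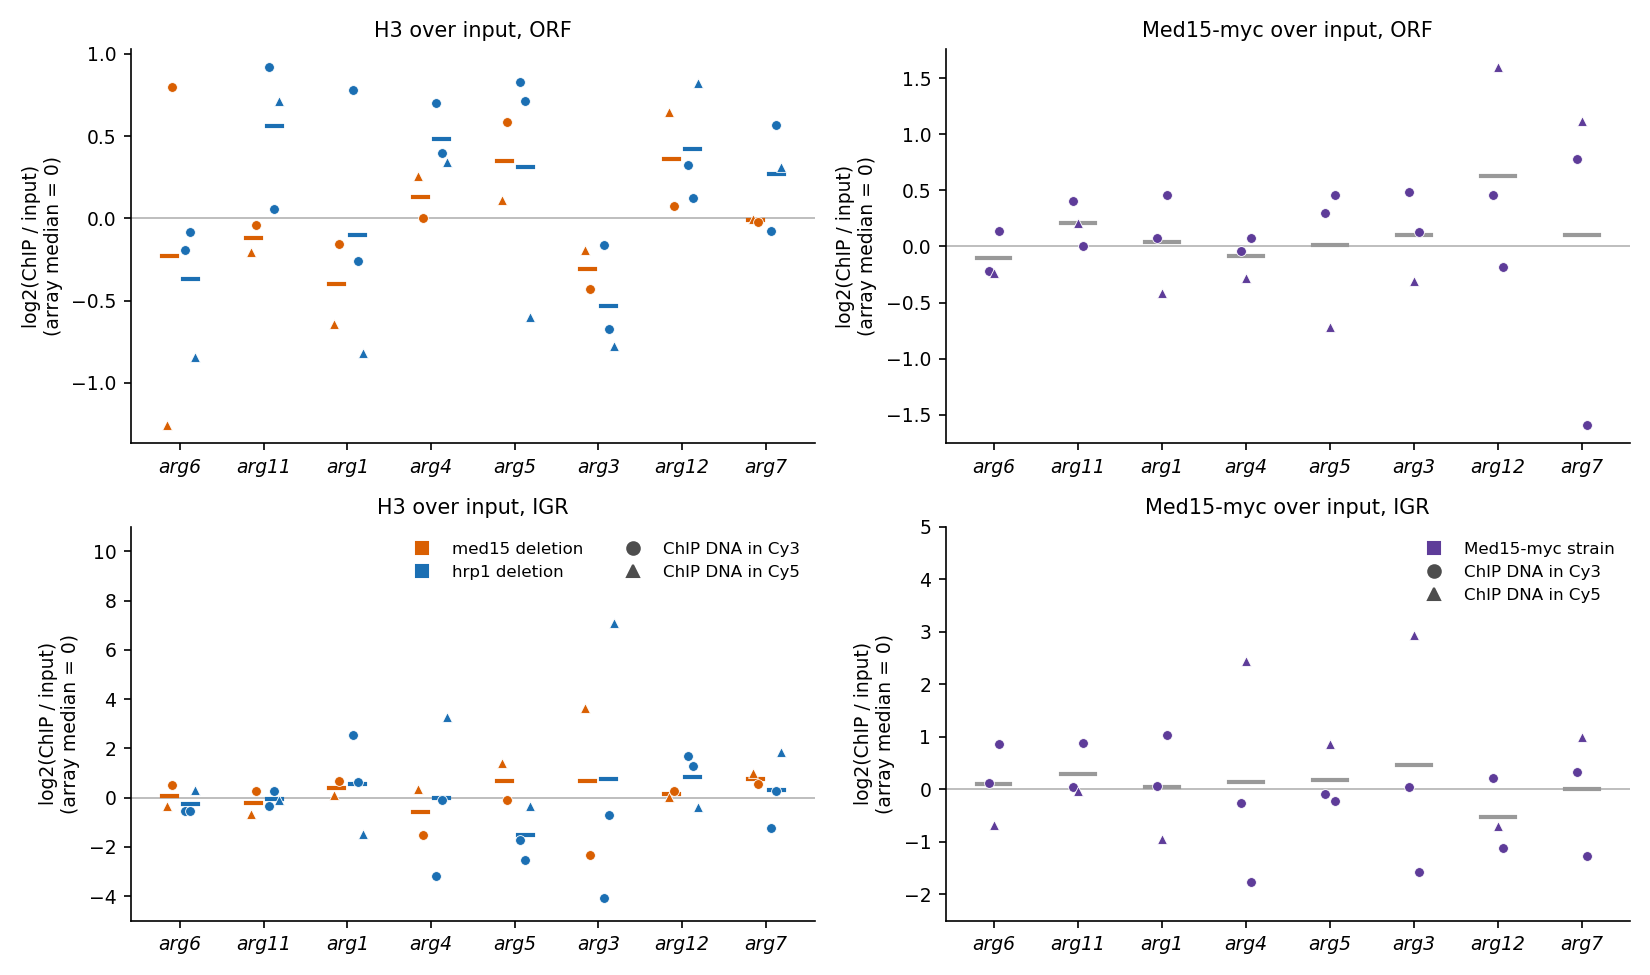
Log2 ratio of ChIP to input (array median at 0) for H3 in the deletions (left) and for Med15-myc (right) at the ORF spots (top) and IGR spots (bottom) of the 8 arginine genes, with 1 point per sample, circles for ChIP DNA in Cy3, triangles for Cy5 and bars at means. The vertical scales differ between panels: ORF values of H3 stay between −1.26 and 0.92, while IGR values at arg3 reach from −4.07 to 7.08.

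Med15-myc over input asked whether the tagged Mediator subunit was enriched at these genes. Of the 8 genes 0 passed against the array median on the IGR arrays and 0 on the ORF arrays in limma, with 0 at an unadjusted p under 0.05 on either (0% of all features passed on each array type). At the arg5 ORF the ratio was 0.29, −0.72 and 0.46, with a mean of 0.01 ± 0.33 (limma, adjusted p = 0.999). At the arg5 IGR spots it was −0.08, 0.87 and −0.23. Samples fell on either side of the median at both.

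The arg11 ORF was the 1 feature of the set with every Med15-myc sample on the same side, at 0.40, 0.21 and 0.01 above the median, as were 11.7% of all ORF features (11.1% lay below it in every sample). The highest mean over ORFs was that of arg12, 0.62 ± 0.42 (limma, adjusted p = 0.998), with samples at 0.46, 1.60 and −0.19. At arg7 the ORF samples were 0.78, 1.12 and −1.59. For both genes the sample with ChIP DNA in Cy5, sample 2, was the highest. In that sample both arg12 spots carried scanner flag 2, as did 26.64% of gene spots and 98.78% of empty spots. In sample 3, 1 of the arg7 spots carried it.

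On the IGR arrays the highest mean was at arg3, 0.47 ± 0.94 (limma, adjusted p = 0.9995), with samples at 0.05, 2.93 and −1.57. The intergenic spots of arg4, arg5 and arg7 shared that pattern, with the Cy5 sample highest at 2.43, 0.87 and 0.99. No background is taken off in these ratios. In the Cy5 sample the ChIP intensity at arg3 was 4420.5 over a local background of 4049.5. At arg4 it was 4674.5 over 3376, at arg5 6582 over 5305.5 and at arg7 5857.75 over 5006.5. In sample 3 the ChIP intensity at arg3 was 734.75, below its background of 1458.5. Scanner flag 2 lay on both spots of arg3, arg4, arg5 and arg7 in sample 3. In the Cy5 sample it lay on both spots of arg5 and arg7 and on 1 spot each of arg3 and arg4. The lowest mean was at arg12, −0.53 ± 0.49 (limma, adjusted p = 0.9995), from 0.21, −0.70 and −1.12. At 0 of the 8 IGR features did all 3 samples lie above the array median (9.15% of all IGR features did) or all below it (9.29%). At every gene of the set the IGR samples spread over a wider range than the size of their mean. After normexp correction arg1 lay below the median in all 3 samples (−0.37 to −0.09), and the share of all features was not counted there.

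Genes that feed or drain the route gave the following in H3 signal against wildtype over the ORFs, where 27.5% of all features passed in the hrp1 deletion (13.6% higher, 13.9% lower) and 5.37% in the med15 deletion (2.99% higher, 2.38% lower). These counts rest on few arrays. Without wildtype replicate 1 or 2, ORF features passing fell from 1315 to 46 or 3 in the hrp1 deletion, and from 257 to 1 in the med15 deletion. Without hrp1 deletion replicate 1 the count in the med15 deletion rose to 816, and without hrp1 deletion replicate 2 it fell to 143. Fits without hrp1 deletion replicate 3 or a med15 deletion sample rest the med15 difference on 1 sample, so their counts are not given. Over the 4 lists and both array types, 1 gene passed against wildtype without wildtype replicate 1, and 0 without wildtype replicate 2. For arginine breakdown and the acetyl cycle (car1, car2, aru1 and SPBC1271.14, with 3 of 4 measured), 1 rose and 1 fell in the hrp1 deletion and 0 passed in the med15 deletion. Median differences were 0.00 and −0.33, against 0.03 and −0.02 over all features. The largest difference was at aru1, an arginase gene, with −4.26 ± 0.59 in the hrp1 and −2.76 ± 0.68 in the med15 deletion. For pyrimidine synthesis, which also uses carbamoyl phosphate (ura1 to ura5, all 5 measured), 1 rose and 1 fell in the hrp1 deletion and 0 passed in the med15 deletion, with medians of 0.21 and 0.85.

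For ammonium, glutamate and arginine supply (6 of 7 measured), 0 rose and 1 fell in each deletion, with medians of −0.37 and −0.94. The transporter gene cat1 gave −1.52 ± 0.43 in the hrp1 and −2.47 ± 0.49 in the med15 deletion. For the synthesis of other amino acids (23 of 25 measured), 2 rose and 4 fell in the hrp1 deletion and 1 rose and 1 fell in the med15 deletion, with medians of −0.28 and 0.06. The tryptophan gene trp4 gave −5.16 ± 0.63 and −4.78 ± 0.72.

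Over the IGR spots 12.4% of all features passed against wildtype in the hrp1 deletion (4.02% higher, 8.36% lower) and 0.184% in the med15 deletion (0.041% higher, 0.143% lower). Without wildtype replicate 1 or 2, 2 IGR features passed in the hrp1 deletion, in place of 604. With replicate number as a block, 1042 passed there, and 110 in place of 9 in the med15 deletion. Without hrp1 deletion replicate 1 the count in the med15 deletion rose to 593. Counts without hrp1 deletion replicate 3 or a med15 deletion sample are not given, since the med15 difference then rests on 1 sample. In the hrp1 deletion 314 passed without hrp1 deletion replicate 2, and 908 without its replicate 1. In the hrp1 deletion 1 pyrimidine gene rose and 1 fell, 2 supply genes fell, and among other amino acid genes 1 rose and 5 fell. From the list of breakdown and the acetyl cycle 0 passed there. The pyrimidine gene ura5, which encodes orotate phosphoribosyltransferase and lies next to arg6 in the gene table, gave 3.34 ± 0.71. The glutamine synthetase gene gln1 gave −2.88 ± 0.60 and the glutamate dehydrogenase gene gdh1 −2.84 ± 0.56. In the med15 deletion 0 genes of the 4 lists passed on the IGR arrays, and the fitted difference at ura5 was 3.25 ± 0.82. With the block, 1 pyrimidine gene passed as higher and 1 as lower in that deletion. Without hrp1 deletion replicate 1, list calls there were 1 higher and 1 lower for pyrimidine synthesis and 1 lower for breakdown and the acetyl cycle. Other amino acids had 1 higher and 2 lower.

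Between the deletions 1 gene of the 4 lists passed over the ORFs, the histidine gene his3, whose H3 signal was lower in the hrp1 deletion (−2.16 ± 0.34, limma, adjusted p = 0.0444). With single samples left out, it passed only without hrp1 deletion replicate 1 (limma, adjusted p = 0.0107). Without hrp1 deletion replicate 2 its adjusted p was 0.120 (limma). The number of ORF features passing, 25 in all samples, rose to 856 without hrp1 deletion replicate 1. For Med15-myc over input 0 genes of the lists passed. Median ratios over the ORFs were 0.11 for arginine breakdown and the acetyl cycle and −0.02 for pyrimidine synthesis. They were 0.30 for supply and 0.11 for other amino acids, against 0.02 over all features. For the 8 arginine genes the median was 0.07.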

How the data were processed

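The members and lists were chosen with earlier results of these data known. The deposited value table of the spotted arrays holds log2 values. By comparison with the scanner tables it is the ChIP channel less background over a constant, with a floor at −6.64, not divided by input (Pearson correlation of 0.991 or more in 16 samples), and this make-up is inferred for wildtype. Per the file headers, the scanner tables give each spot's median intensity and its local background in either channel, uncorrected by the authors. No label or header names the array's genome build, and neither coordinates nor sequences are printed.

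Control spots were left out, floor values were treated as missing, spots of a feature were averaged and arrays were centred on their median. Spots with scanner flag 2 were kept. On the ORF arrays with scanner files, 95.03 to 99.16% of empty spots and 0.6944 to 36.24% of gene spots carried it. Under R 4.3.3, lmFit and eBayes of limma 3.58.1 were run on all features of an array type: for H3 signal with strain and ChIP dye over 7 samples, for H3 over input with strain and dye over 5, and for Med15-myc over 3 samples against 0. All p-values are two-sided and adjusted by Benjamini-Hochberg within a comparison. In test results the value after ± is the standard error. The dye term comes from the deletion samples alone, where 1 sample of each strain has ChIP DNA in Cy5. Leaving out either Cy5 sample rests the dye term on the other alone, so neither then counts towards strain differences. The med15 difference then rests on 1 sample, as it does without either med15 deletion sample. The number of arrays limits the precision. Alternatives were no dye term, Cy3 samples alone, floor values kept, arrays scaled to equal spread, replicate number as a block, normexp with an offset of 50 with and without loess, the deposited ChIP values for Med15-myc, and each sample left out. Added after seeing the data were the block and left-out samples for the lists and left-out samples for the arg5 bound, and floor values treated either way in the count of features below empty spots. The labels do not say that replicate numbers mark shared cultures. The block leaves few degrees of freedom, and it absorbs hrp1 deletion replicate 3, the only sample of its number. In blocked H3 signal fits the med15 difference then rests on 1 sample, so blocked counts are weak evidence. For H3 over input the block replaced the dye term. Deviations of same-numbered samples from their strain means correlated at 0.117 to 0.203 over IGR features and 0.0238 to 0.333 over ORF features. Blocked values stand beside the IGR counts that they move. All 8 members were named, with up to 3 genes a list by size of the difference, the 5 profiles nearest to arg5, the neighbours of arg5, and med15 and hrp1. Names come from the files and the ASM294v3 gene table, in which 4579 of 4960 IGR and 4649 of 4885 ORF features matched 1 gene. In that table arg7 is SPBC1773.14. SPBC1271.14, which has arg7 as a synonym, is spotted separately.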

Additional observations from a re-analysis of the deposited data

Results flagged for a closer look

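At the IGR spots of arg6, every med15 deletion sample lay above the wildtype mean in H3 signal and every hrp1 deletion sample below it, with a difference between the deletions of −1.72 that did not pass in limma (adjusted p = 0.163). At the IGR spots of arg12 every hrp1 deletion sample lay above the wildtype mean and every med15 deletion sample below it. The difference there was 1.56 (limma, adjusted p = 0.146). Each wildtype mean is that of 2 samples. At arg6 these ran from −0.48 to 1.15, and the lower lay inside the hrp1 deletion range (−0.66 to −0.15). At arg12 they ran from 0.69 to 1.11 and overlapped with the med15 deletion (0.04 to 0.73). How many of all features show either pattern was not counted. Groups of 2 or 3 samples are too small for a test of single outlying samples.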

How the results depend on the processing

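The fitted arg5 ORF difference from wildtype, 7.70 in the med15 and 7.56 in the hrp1 deletion, is nominal, since the wildtype signal lay below empty spots. It ran from 7.11 to 8.02 in the hrp1 deletion and from 7.24 to 8.30 in the med15 deletion as single samples were left out. With the replicate block it was 7.15 in the med15 deletion and 7.69 in the hrp1 deletion. In the tested comparisons the replicate block left the number of arginine genes passing at 0. Over all ORF features it moved the count between the deletions from 25 to 64, and the adjusted p of his3 to 0.0710 (limma). That number became 1 for H3 over input against the array median with normexp (arg7, IGR) and with normexp and loess (arg7 at 0.90, IGR, and arg3, ORF), and ranged from 0 to 1 for IGR H3 signal between the deletions as samples were left out. With the deposited ChIP values, which are not divided by input, 2 Med15-myc ORFs passed (arg5 at 1.04, limma, adjusted p = 0.0227, and arg11 at 0.89, adjusted p = 0.0422), where 1625 of 4789 ORF features passed. The cause was not tested. No member reversed a call.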
